A study of Homo sapiens with 8 samples.

Results

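The departure from additivity was measured for KG1a cells given TAK-981 and venetoclax together. For each gene it is the log2 fold change with both drugs less the sum of the log2 fold changes with each drug alone, all against vehicle. Additivity on this scale means that the fold changes of the single drugs multiply. A positive departure places the level with both drugs above that product, and a negative one places it below. The contrast was formed for every gene, with no choice by measured values, and drew on all 8 libraries of the series. It could be tested in 12843 of the 25168 genes of the count table.

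KG1a is a long-established line of immature human leukemia cells of the acute myeloid type. RNA was sequenced from cells that had spent 48 h in DMSO as vehicle, in TAK-981 at 5 µM, in venetoclax at 1 µM, or in the combination of these same doses. Each of the 4 groups held 2 libraries, and all came from this single line at 1 time point and 1 dose of each drug. Whether paired libraries were grown as separate cultures is not said by any label. The p-values therefore reflect only how far these libraries differ, a spread that may be technical. In bulk RNA, fewer cells of a kind and less RNA per cell cannot be told apart.

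SUMO proteins are small proteins that a cascade of enzymes attaches to lysines of other proteins, many of them nuclear, such as transcription factors and repressors. SAE1 and UBA2 form the enzyme that activates SUMO, and TAK-981 blocks that first step. Venetoclax occupies the groove of BCL2 in which that protein holds its death-promoting relatives, the BH3-only proteins, and so frees them to act at the mitochondrion. The series was built to ask whether blocking SUMO attachment sensitizes leukemia cells to venetoclax. The departure read here concerns transcript levels alone and carries no measure of cell death.

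Total counts ran from 13204588 to 26304900 per library. The replicates of the venetoclax group stood further apart than those of the other groups. Over 9858 genes with a mean of at least 5 CPM (counts scaled to library size), the median absolute log2 difference between replicates was 0.262 for venetoclax, against 0.0968 for vehicle, 0.088 for TAK-981 and 0.101 for the combination. The test pools the spread over the 4 groups. Of 14 markers of KG1a and immature blood cells, CD34, PTPRC, SPN and CD44 were read at 446 CPM or more in each library. MEIS1 and FLT3 were under 1 CPM throughout, and CD99 and KIT reached at most 1.16 and 1.6 CPM. The summed level of 19 noncoding RNAs kept as a sign of RNA quality, most of it MALAT1, was 3829 and 3353 CPM with vehicle, 6987 and 4279 with TAK-981, 5137 and 3904 with venetoclax, and 12930 and 14840 with both drugs. That sum thus moved with the combination, and its part in the departures was not tested.

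Most expressed genes had a small departure from the product of the single-drug fold changes. Of the genes of at least 5 CPM, only 274 had a sum at least 2-fold higher than vehicle and 322 one at least 2-fold lower. For the rest the single drugs summed to under 2-fold, so a small departure there says less about additivity. Among the 9858 genes of at least 5 CPM, 87.0% had a departure within 1.5-fold in either direction, and the median was -0.06 on the log2 scale. The middle 90% of these genes lay between -0.63 and 0.64. A departure of more than 2-fold was estimated for 115 of them above the sum and for 46 below it. The precision was limited, since the 95% confidence interval of a departure reached 0.44 log2 units to either side for the median gene.

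**Figure D1:**
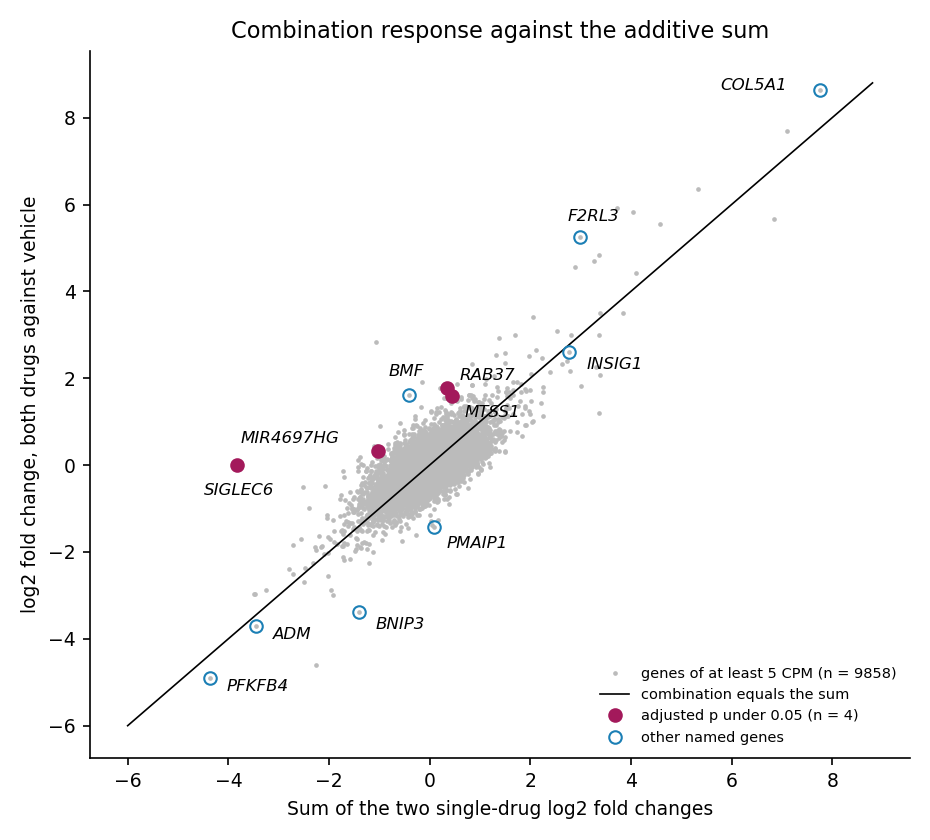
Log2 fold change with both drugs (vertical axis) against the sum of the log2 fold changes of the single drugs (horizontal axis), one point per gene of at least 5 CPM (9858 genes), with the line on which both are equal. The 4 genes past the threshold lie above the line, SIGLEC6 furthest to the left with a sum of -3.82 and a combination value of -0.01, and the named genes BNIP3 and PMAIP1 lie below it.

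Of the 12843 genes, 4 passed the threshold of 0.05 above the sum (0.0311%) and 0 below it (0%), by edgeR's quasi-likelihood test with Benjamini-Hochberg adjustment. At an unadjusted p under 0.05 there were 931 genes above the sum (7.25%) and 1496 below it (11.6%). DESeq2 called 296 genes and limma-voom called 9. Leaving out either library of the vehicle, TAK-981 or combination group ended all 4 calls in edgeR, with 1205 to 1890 genes at an unadjusted p under 0.05. Without venetoclax replicate 1 there were 713 calls, and without venetoclax replicate 2 there were 4440, with the 4 genes among them both times.

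The 4 called genes are RAB37, SIGLEC6, MIR4697HG and MTSS1. In each the level with both drugs was about as high as with vehicle or higher. Venetoclax alone gave the lowest level, though by little in MTSS1. The contrast that selected these genes adds the combination and subtracts venetoclax, so the selection itself favors such a pattern. RAB37 encodes a small GTPase of vesicle transport and lies on the plus strand of chromosome 17, 74670578 to 74747335 (hg38). It stood at 51.3 and 57.4 CPM with vehicle, 169 and 164 with TAK-981, 22.6 and 22.8 with venetoclax, and 175 and 197 with both drugs. Both combination libraries of RAB37 were thus above every other library, and both venetoclax libraries were below every other. Multiplied fold changes would have given 69.5 CPM. The departure was 1.42 (SE 0.146, 95% interval 1.09 to 1.75), a 2.67-fold excess (adjusted p = 0.0385).

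SIGLEC6 encodes a sialic acid-binding receptor of the cell surface, on the minus strand of chromosome 19, 51519525 to 51531856 (hg38). Its levels were 7.51 and 8.49 CPM with vehicle, 4.64 and 7.06 with TAK-981, 0.762 and 0.779 with venetoclax, and 6.54 and 9.54 with both drugs. The venetoclax libraries were far below all others, and the combination libraries overlapped those of vehicle. The venetoclax value rests on 10 and 20 counts. The product of the single-drug folds would be 0.563 CPM, and the departure was 3.81 (SE 0.42, 95% interval 2.87 to 4.76), a 14.1-fold excess (adjusted p = 0.0385).

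MTSS1 encodes a protein that binds actin and bends membranes, on the minus strand of chromosome 8, 124550790 to 124728429 (hg38). It stood at 49.6 and 45.8 CPM with vehicle, 73.1 and 67.9 with TAK-981, 44.0 and 43.7 with venetoclax, and 142 and 145 with both drugs. TAK-981 alone raised it (log2 fold change 0.56) and venetoclax alone moved it little (-0.12). The combination libraries were the highest of the 8 by a wide gap. Against 64.8 CPM for multiplied folds, the departure was 1.14 (SE 0.135, 95% interval 0.84 to 1.45, adjusted p = 0.0385). MIR4697HG is the noncoding host transcript of a microRNA, on the minus strand of chromosome 11, 133896438 to 133901601 (hg38), and is named here because it completes the 4. It stood at 69.9 and 63.0 CPM with vehicle, 73.4 and 74.8 with TAK-981, 32.1 and 27.0 with venetoclax, and 83.0 and 83.5 with both drugs. Only the venetoclax libraries were low. The departure was 1.34 (SE 0.159, 95% interval 0.99 to 1.70, adjusted p = 0.0385) against a product of 33.0 CPM.

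**Figure D2:**
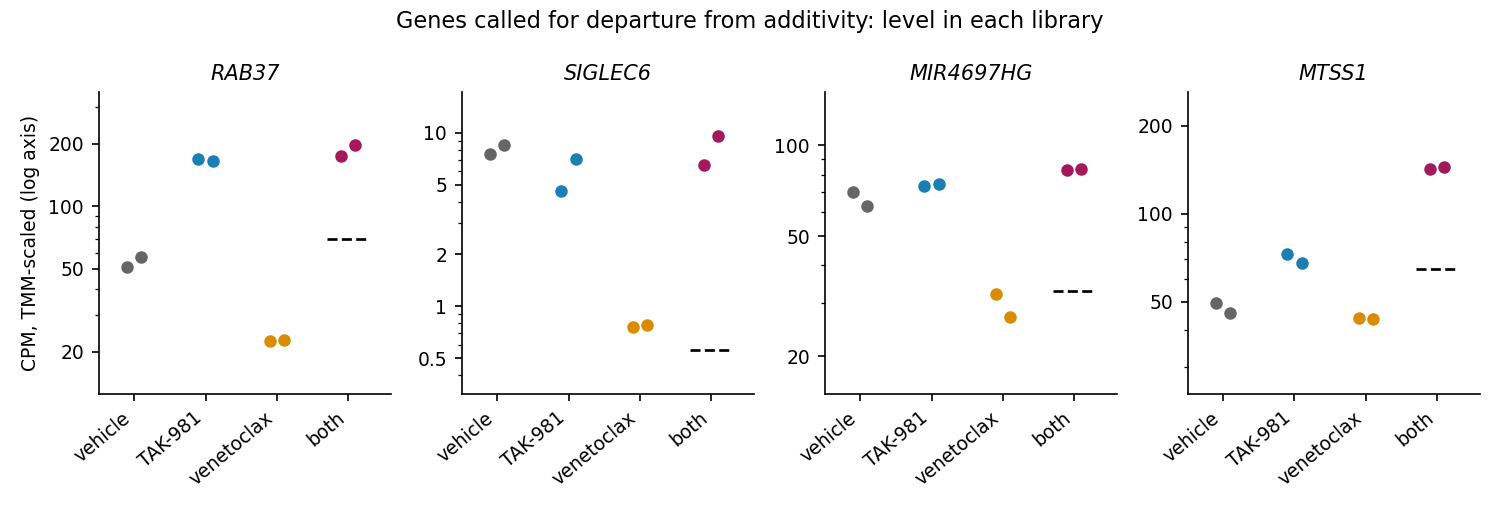
Level of the 4 called genes in each library, in CPM on a logarithmic axis, by group, with a dashed line at the level that multiplied single-drug fold changes would give. Both combination libraries lie above the dashed line in each gene, and venetoclax alone gives the lowest points.

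The 4 calls kept their sign in all 16 choices of 1 library per group. Over the 8 fits that leave out 1 library, the departure ranged from 1.33 to 1.5 for RAB37, from 3.53 to 4.15 for SIGLEC6, from 1.08 to 1.20 for MTSS1 and from 1.21 to 1.46 for MIR4697HG. The adjusted p reached 0.390, 0.360, 0.407 and 0.407 in those fits (edgeR). Additivity can also be read on the linear scale, where differences in CPM add instead of folds multiplying. All 4 departures kept their sign there, as did 2093 of the 2105 genes of at least 5 CPM with an unadjusted p under 0.05.

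Venetoclax acts on the BCL2 family, and the departures of that family were split. PMAIP1, which encodes the BH3-only protein NOXA, an inhibitor of MCL1, stood at 32.9 and 41.3 CPM with vehicle, 34.0 and 36.0 with TAK-981, 40.1 and 43.9 with venetoclax, and 13.3 and 14.4 with both drugs. The combination libraries were thus the only low ones. Its departure of -1.52 (SE 0.197, 95% interval -1.96 to -1.08) missed the threshold (adjusted p = 0.0598, edgeR). PMAIP1 was called with the replicate number as a block, with DESeq2's size factors, by DESeq2 and by limma-voom. The edgeR test against 1.5-fold did not call it, with an adjusted p of 0.365. Over the fits that leave out 1 library, its departure ranged from -1.70 to -1.37. BMF, a BH3-only gene whose product binds BCL2, stood at 8.34 and 6.92 CPM with vehicle, 11 and 9.04 with TAK-981, 3.43 and 5.10 with venetoclax, and 24.7 and 22.1 with both drugs. Here the combination libraries were the highest, while multiplied folds would give 5.6 CPM. The departure was 2.02 (SE 0.30, 95% interval 1.35 to 2.7, adjusted p = 0.0845, edgeR).

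The other members of the family gave small or uncertain departures. Over the 8 tested BH3-only and effector genes the median was 0.18, with PMAIP1 the lowest and BMF the highest, and 1 member on each side (12.5%) had an unadjusted p under 0.05, against 7.25% of all genes above and 11.6% below. BCL2L11, which encodes BIM, stood at 25.1 and 23.8 CPM with vehicle, 36.7 and 37.3 with TAK-981, 16 and 16.8 with venetoclax, and 27.8 and 26.4 with both. The drugs moved BCL2L11 in opposite directions, and the combination lay between them, with a departure of 0.12 (SE 0.162, 95% interval -0.24 to 0.49). For BBC3, which encodes PUMA, the levels were all under 2 CPM, and the departure was 0.02 with an interval from -1.33 to 1.37, too wide for a reading.

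The guardians of the family, which restrain apoptosis, lay near the sum. BCL2 itself, the target of venetoclax, stood at 289 and 298 CPM with vehicle, 150.2 and 158 with TAK-981, 236 and 242 with venetoclax, and 109 and 119 with both drugs. The combination libraries were the lowest, close under the product of 125 CPM, and the departure was -0.14 (SE 0.131, 95% interval -0.44 to 0.15, adjusted p = 0.569, edgeR). MCL1, the guardian that NOXA inhibits, had a departure of -0.24 (95% interval -0.54 to 0.06). BCL2L1, which encodes BCL-XL, had 0.03 (95% interval -0.51 to 0.57), with venetoclax replicates at 35.4 and 53.8 CPM. None of the 5 guardians tested had an unadjusted p under 0.05, and their median was 0.03.

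**Figure D3:**
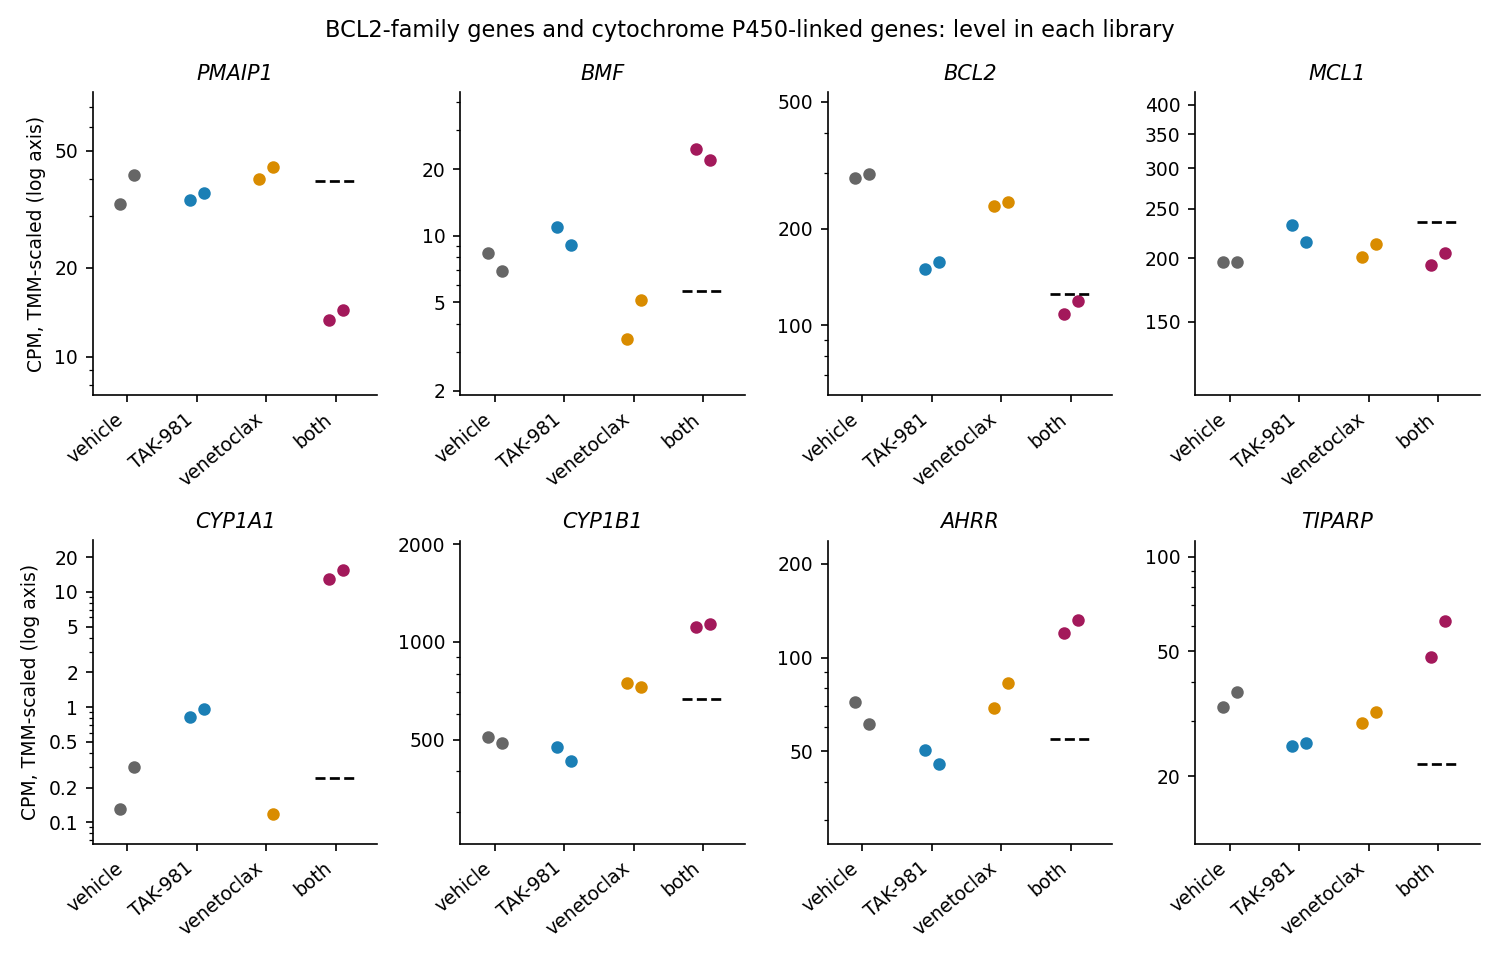
Level in each library, in CPM on logarithmic axes, of 4 BCL2-family genes (top) and 4 genes linked to cytochrome P450 induction (bottom), with a dashed line at the level that multiplied single-drug folds would give. PMAIP1 with both drugs (13.3 and 14.4 CPM) lies below its line and BMF above it, while CYP1A1, CYP1B1, AHRR and TIPARP all lie above theirs. Venetoclax replicate 1 had 0 counts of CYP1A1 and has no point.

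Among the genes just outside the threshold were several known to be induced through the aryl hydrocarbon receptor, a transcription factor that binds foreign chemicals such as dioxin and switches on the enzymes that clear them. They were singled out after their values were seen. CYP1A1, the cytochrome P450 that serves as the classic readout of that receptor, had 3 and 7 counts with vehicle, 19 and 18 with TAK-981, 0 and 3 with venetoclax, and 281 and 213 with both drugs. The combination thus held nearly all of its reads, at 15.7 times the TAK-981 level (95% counting interval 11.3 to 22.6). Venetoclax alone gave 0.359 of the vehicle level (95% counting interval 0.0635 to 1.40), so no increase with that drug was detectable at this depth. The fitted departure was 5.41 (adjusted p = 0.0937, edgeR). It rests on 3 venetoclax counts and depends on the prior count of the fit, with 4.83 without venetoclax replicate 1 and 9.09 without replicate 2.

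AHRR, the repressor that the receptor induces against itself, stood at 72.1 and 61.3 CPM with vehicle, 50.7 and 45.5 with TAK-981, 68.9 and 83.1 with venetoclax, and 120.3 and 132 with both drugs. TIPARP, an enzyme that modifies the receptor and limits it, stood at 33.4 and 37.2, then 25 and 25.5, then 29.5 and 32.0, and with both drugs at 48.1 and 62.5 CPM. In each of the 2 genes the TAK-981 libraries were the lowest and the combination libraries the highest. The departures were 1.20 for AHRR (SE 0.184) and 1.33 for TIPARP (SE 0.202), both with an adjusted p of 0.086 (edgeR). CYP1B1, a further cytochrome P450 of the receptor, stood at 509 and 488 CPM with vehicle, 475 and 432 with TAK-981, 746 and 727 with venetoclax, and 1115 and 1139 with both. Its departure was 0.75 (SE 0.15, adjusted p = 0.108, edgeR).

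AHR, the receptor gene itself, went the other way, with 166 and 168 CPM with vehicle, 140.1 and 152 with TAK-981, 213 and 156 with venetoclax, and 96.3 and 108 with both. The combination libraries were the lowest of the 8 for AHR, and its departure was -0.66 (SE 0.204, adjusted p = 0.175, edgeR). The partner gene ARNT, at -0.13, lay near the sum. NQO1, which the receptor shares with the NRF2 pathway, had a departure of 0.33 with an interval from -0.81 to 1.47. CYP1A2, ALDH3A1 and UGT1A6, further known targets, had too few counts to test.

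The receptor with its partner binds the letters GCGTG, the core of the xenobiotic response element. The 250 bases before the start of 3 of these genes are shown because they carry that core, in capitals on either strand (as GCGTG or its complement CACGC), 5′ to 3′ on the gene's strand, from RefSeq on GRCh38.p14. They are chr15:74725529-74725778 on the minus strand for CYP1A1, chr5:321464-321713 on the plus strand for AHRR and chr3:156674340-156674589 on the plus strand for TIPARP.
CYP1A1: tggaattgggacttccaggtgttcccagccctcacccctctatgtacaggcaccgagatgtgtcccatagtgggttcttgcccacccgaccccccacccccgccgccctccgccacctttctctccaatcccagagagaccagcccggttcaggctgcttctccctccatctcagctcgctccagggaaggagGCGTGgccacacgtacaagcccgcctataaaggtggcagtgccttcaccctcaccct
AHRR: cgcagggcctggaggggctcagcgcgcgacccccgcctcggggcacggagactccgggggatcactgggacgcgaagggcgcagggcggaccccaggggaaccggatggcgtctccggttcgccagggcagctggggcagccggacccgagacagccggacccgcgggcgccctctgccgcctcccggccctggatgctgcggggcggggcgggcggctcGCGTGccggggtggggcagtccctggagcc
TIPARP: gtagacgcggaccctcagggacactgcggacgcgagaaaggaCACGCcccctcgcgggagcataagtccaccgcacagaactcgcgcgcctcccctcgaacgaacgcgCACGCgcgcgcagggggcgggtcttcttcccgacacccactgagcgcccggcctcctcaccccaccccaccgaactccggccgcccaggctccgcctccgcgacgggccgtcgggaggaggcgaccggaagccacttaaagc
CYP1A1 and AHRR held 1 match each and TIPARP held 2. Among 35116 promoter windows of the same length, 32.2% held at least 1 match and 10.2% held 2 or more, so a match here is a description and marks no bound site. RefSeq has several starts for AHRR and TIPARP, and the ones shown lie 17538 and 1355 bases from the start in the count table. CYP1B1 and RAB37 had no entry.

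Other genes with the smallest p short of the threshold were read in order of p, 20 per direction, and were likewise named after their values were seen. Among those above the sum, ITGAL, the integrin chain of LFA-1, stood at 267 and 245 CPM with vehicle, 222 and 221 with TAK-981, 327 and 306 with venetoclax, and 549.9 and 541 with both drugs. ANPEP, the myeloid aminopeptidase CD13, stood at 192 and 174 with vehicle, 194 and 199 with TAK-981, 179 and 195 with venetoclax, and at 400.2 and 420.3 CPM with both. The largest log2 fold change of a single drug in these genes was 0.30, and the combination libraries were above all others. Their departures were 1.00 for ITGAL (SE 0.138) and 1.03 for ANPEP (SE 0.141), each with an adjusted p of 0.0598 (edgeR).

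In another group of these genes the drugs pulled apart and the combination stood above vehicle, as TAK-981 alone did. MYO1G, a myosin of blood cells, had log2 fold changes of 0.56 with TAK-981, -0.74 with venetoclax and 1.34 with both. PTGS1, the cyclooxygenase of platelets, had 0.59, -1.22 and 0.76, and PRKCB, a protein kinase C, had 0.97, -0.99 and 0.84. BTG2, an antiproliferative p53 target, had 0.34, -0.93 and 0.98. The combination libraries were above those with TAK-981 for MYO1G and BTG2, overlapped them for PTGS1 and were under them for PRKCB. The departures were 1.52 for MYO1G, 1.40 for PTGS1, 0.86 for PRKCB and 1.56 for BTG2, with adjusted p from 0.0598 to 0.086 (edgeR). F2RL3, a thrombin receptor of platelets, stood at 1.13 and 1.11 CPM with vehicle, 9.11 and 8.02 with TAK-981, 1.22 and 1.13 with venetoclax, and 35.6 and 50.0 with both. The venetoclax libraries of F2RL3 were close to vehicle, and the combination libraries were far above those with TAK-981 (departure 2.26, SE 0.36, adjusted p = 0.086, edgeR). KANK3, of the actin cytoskeleton, stood at 7.08 and 7.56 CPM with vehicle, 7.91 and 9.73 with TAK-981, 0.99 and 1.09 with venetoclax, and 4.53 and 5.83 with both. The combination libraries of KANK3 lay between those of venetoclax and vehicle (departure 2.01, adjusted p = 0.086, edgeR).

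Below the sum, SLC7A11, the cystine importer that feeds glutathione synthesis, gave the same form as PMAIP1. It stood at 91.7 and 101 CPM with vehicle, 93.3 and 107 with TAK-981, 81.2 and 104 with venetoclax, and 44.5 and 42.9 with both drugs. The libraries of each single drug overlapped those of vehicle, and the combination libraries were lower than all others. The departure was -1.14 (SE 0.19, adjusted p = 0.0927, edgeR). LYPLA1, a depalmitoylating enzyme, and TMED5, of the secretory pathway, had departures of -0.76 and -0.90. TMSB10, an actin-sequestering thymosin, stood at 267 and 345 CPM with vehicle, 503 and 522 with TAK-981, 197 and 193 with venetoclax, and 148 and 155 with both. For TMSB10 the TAK-981 libraries were the highest and the combination libraries the lowest (departure -1.10, SE 0.177, adjusted p = 0.086, edgeR).

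In other genes below the sum the level under venetoclax was high and the combination returned to vehicle. EIF2AK2, the interferon-induced kinase PKR, stood at 218 and 209.9 CPM with vehicle, 205 and 189 with TAK-981, 399 and 402 with venetoclax, and 224 and 218 with both drugs. The venetoclax libraries alone were high, and the departure was -0.74 (SE 0.131, adjusted p = 0.0979, edgeR). GAR1, a protein of the particles that modify ribosomal RNA, had log2 fold changes of 0.99 with venetoclax and 0.01 with both, and XPOT, the exporter of transfer RNA, had 0.83 and -0.15. Their departures were -0.93 and -0.70.

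Over the 22 tested genes of the SUMO pathway, 16 departures lay below the sum and 6 above, with a median of -0.28, against -0.01 over all genes tested. At an unadjusted p under 0.05 there were 3 below (13.6%) and 1 above (4.55%), near the shares over all genes (11.6% and 7.25%). SUMO3 stood at 147 and 163 CPM with vehicle, 204 and 205 with TAK-981, 219 and 208 with venetoclax, and 235 and 226 with both. Every treated library of SUMO3 was above vehicle, and the combination libraries were the highest, though under the 282 CPM of multiplied folds. The departure was -0.29 (SE 0.133, 95% interval -0.59 to 0.01, adjusted p = 0.271, edgeR), and SUMO2 had -0.37. The activating enzyme genes had 0.00 for SAE1 (95% interval -0.37 to 0.37) and -0.28 for UBA2 (95% interval -0.62 to 0.07).

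Gene lists were described by the number of members past an unadjusted p of 0.05 and by their median, since 0 members were called in each of the 36 lists. Over all genes tested, 11.6% were below the sum and 7.25% above it at that p, with a median of -0.01, and each list is to be read against those shares. None of the members named with a list is a called gene. Most are examples picked with their values seen, some at the extreme of their list. Protein folding and ribosome assembly stood below the sum. The list of cytosolic heat shock and chaperonin genes also held the mitochondrial HSPD1 and HSPE1. Of its 27 tested genes, 16 were below at an unadjusted p under 0.05 (59.3%) and 0 above, and the median was -0.43. HSPH1, a partner of the HSP70 chaperones, stood at 127.5 and 127.2 CPM with vehicle, 162 and 149.8 with TAK-981, 351 and 349 with venetoclax, and 248 and 259.7 with both. The venetoclax libraries were the highest for HSPH1, and the combination lay between them and TAK-981 (departure -0.75, adjusted p = 0.0968, edgeR). HSPD1, the mitochondrial chaperonin, had a departure of -0.60 and CCT6A, a subunit of the cytosolic chaperonin, had -0.57.

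Of 40 MYC targets and ribosome assembly genes, 21 were below the sum at an unadjusted p under 0.05 (52.5%) and 1 above (2.5%), with a median of -0.37. RRS1, a ribosome assembly factor, stood at 14.2 and 18.1 CPM with vehicle, 17.8 and 19.6 with TAK-981, 42.8 and 36.7 with venetoclax, and 20.5 and 20.2 with both. The venetoclax libraries alone were high, and the combination was near TAK-981 (departure -1.17). MYC itself had a departure of 0.05 (95% interval -0.42 to 0.52), with 290.3 and 305 CPM with vehicle, 178 and 198 with TAK-981, 299.5 and 397 with venetoclax, and 209 and 247 with both. The TAK-981 libraries of MYC were the lowest, and the combination libraries lay between them and vehicle. In the splicing list 16 of 44 genes were below (36.4%) and 0 above, with a median of -0.28 and SNRPC, of the U1 particle, at -0.70. In the proteasome list 7 of 31 were below (22.6%) and 0 above, with a median of -0.20 and PSMD12 at -0.80.

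The clustered zinc finger genes of chromosome 19 encode repressors of transposable elements that work with the corepressor TRIM28, a known SUMO substrate. Of 35 tested, 34 lay below the sum, 18 of them (51.4% of the list) at an unadjusted p under 0.05, and 0 above passed it, with a median of -0.41. ZNF486 stood at 59.0 and 62.3 CPM with vehicle, 95.5 and 90.7 with TAK-981, 81.4 and 78.8 with venetoclax, and 84.9 and 85.4 with both. The libraries of each drug alone were above vehicle, and the combination libraries lay between those of venetoclax and TAK-981 (departure -0.53). In the mitosis list, 16 of 54 genes were below (29.6%) and 0 above, with a median of -0.40. MAD2L1, of the spindle checkpoint, had a departure of -0.72 and BUB1B, of the same checkpoint, had -0.78. In the replication list 6 of 46 were above (13%) and 1 below (2.17%), with a median of 0.07.

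Antigen presentation stood above the sum. Of 19 MHC class I presentation genes, 8 were above at an unadjusted p under 0.05 (42.1%) and 0 below, with a median of 0.44. HLA-E stood at 178 and 208 CPM with vehicle, 297 and 317 with TAK-981, 96.5 and 100.4 with venetoclax, and 279 and 352 with both drugs. HLA-B stood at 187 and 216, then 432 and 471, then 97.8 and 112, and with both drugs at 436 and 589 CPM. In the 2 genes the single drugs gave opposite directions and the combination libraries overlapped those of TAK-981. Their departures were 1.01 for HLA-E (SE 0.184, adjusted p = 0.0999) and 1.12 for HLA-B (SE 0.218, adjusted p = 0.108, edgeR). NLRC5, the activator of MHC class I transcription, had 0.89, and TAP1, which imports peptides, had 0.93. HLA class I genes resemble one another in sequence, and some of their reads could be shared, so single members are uncertain.

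Lysosome and autophagy genes had 8 of 34 above (23.5%) and 2 below (5.88%), with a median of 0.37, and SQSTM1, the autophagy receptor p62, at 0.61. NF-kB targets had 3 of 17 above (17.6%) and 0 below, with a median of 0.27. TNFAIP3, which ends NF-kB signalling, stood at 108 and 105 CPM with vehicle, 94.1 and 88.3 with TAK-981, 41.4 and 45.1 with venetoclax, and 62.9 and 61.3 with both. The combination lay between the single drugs for TNFAIP3 (departure 0.75, SE 0.135, adjusted p = 0.0979, edgeR). Megakaryocyte and platelet markers had 5 of 8 above (62.5%) and 0 below, with a median of 0.74, among them F2RL3, VWF at 2.18, the selectin SELP at 1.49 and the integrin chain ITGA2B at 0.72. Of the tested members, 1 had a departure below the sum, at -0.69. VWF was low, at 2.02 and 2.27 CPM with vehicle and 0.82 and 1.06 with venetoclax (scaled to total counts). It is also in the list of endothelial markers, whose median departure was 0.02. The platelet markers PF4, PPBP, GP9, GP1BA and TUBB1 were under 1 CPM in each library. The summed level of the 13 markers was 361 and 284 CPM with vehicle, 348 and 363 with TAK-981, 168 and 251 with venetoclax, and 431 and 486 with both, and ITGA2B made up most of it.

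The medians moved with the venetoclax library used. Without replicate 1 and without replicate 2 respectively, they were -0.35 and -0.51 for the heat shock list, -0.35 and -0.41 for ribosome assembly, -0.26 and -0.56 for the zinc finger genes, -0.21 and -0.47 for mitosis and -0.20 and -0.36 for splicing. For the proteasome list they were -0.26 and -0.12, and for the SUMO pathway -0.14 and -0.36. They were 0.36 and 0.78 for MHC class I, 0.26 and 0.50 for lysosome genes, 0.16 and 0.28 for NF-kB targets and 0.56 and 0.94 for megakaryocyte markers. All of these kept the sign of their median in both fits.

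**Figure D4:**
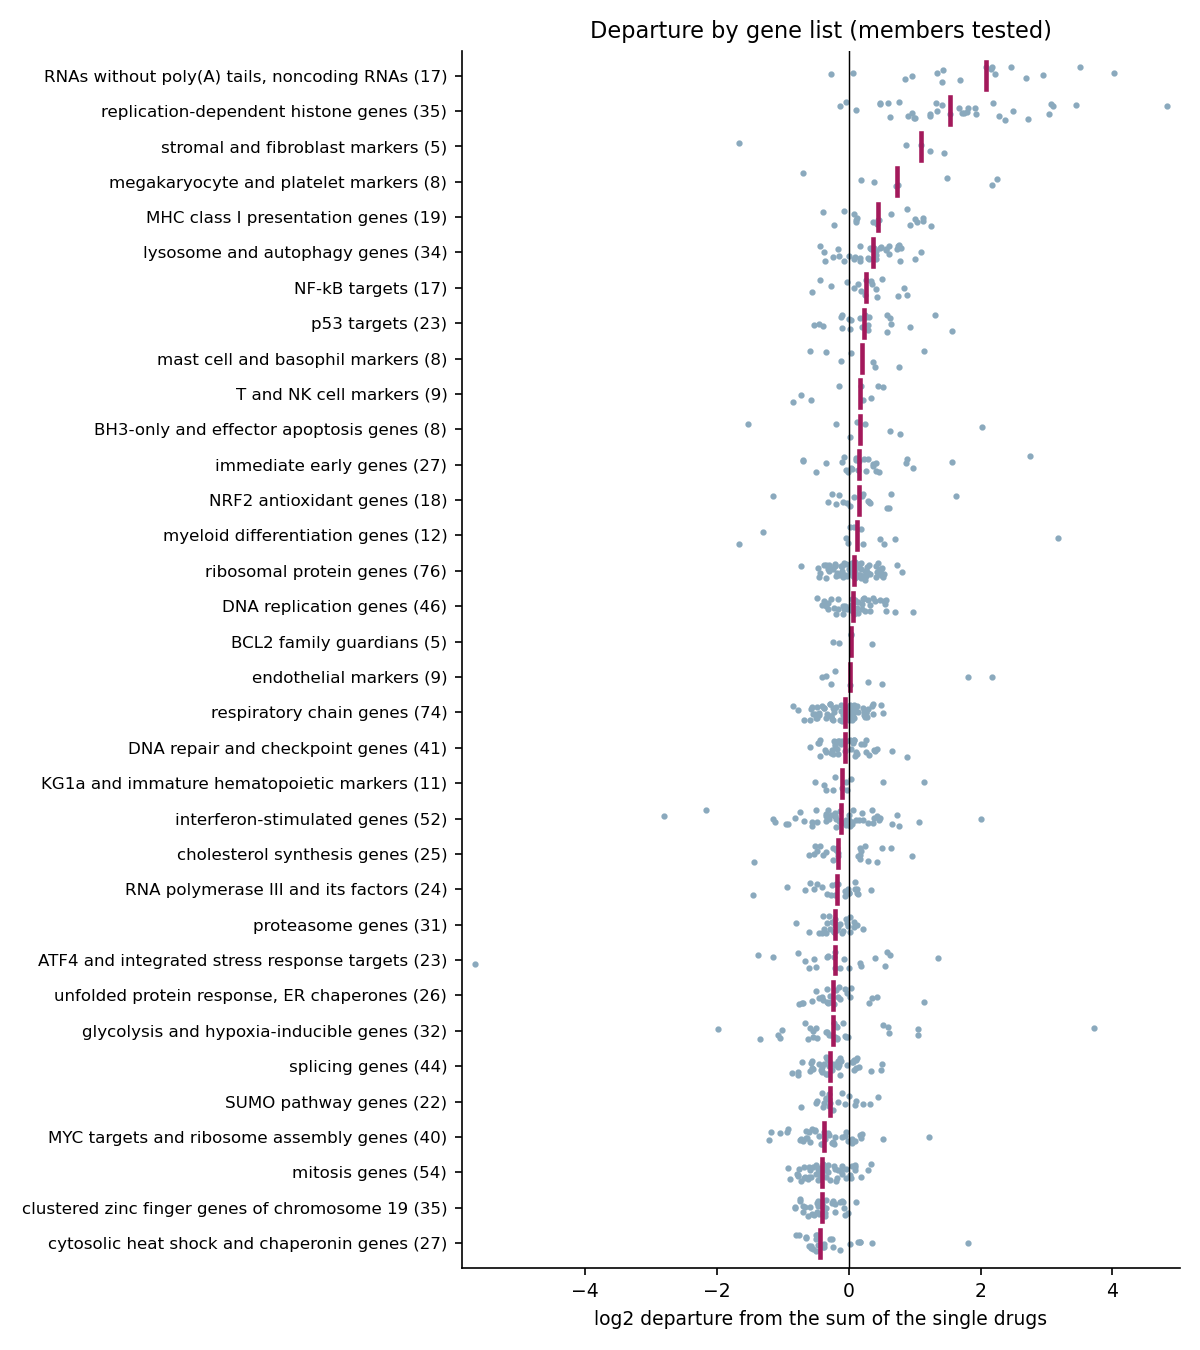
Departure of each tested member (points) and the median (bar) for the gene lists with at least 5 tested members, on the log2 scale, with the number tested in brackets. The heat shock, zinc finger, mitosis and ribosome assembly lists have medians between -0.43 and -0.37, and the noncoding RNA and histone lists have 2.08 and 1.54.

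Interferon-stimulated genes gave no single direction. Of 52, 4 were above and 4 below (7.69% each, against 7.25% and 11.6% of all genes), with a median of -0.12 that was -0.30 without venetoclax replicate 1 and 0.32 without replicate 2. MX1, an antiviral GTPase, stood at 3.21 and 3.24 CPM with vehicle, 5.33 and 6.36 with TAK-981, 4.34 and 31.4 with venetoclax, and 5.67 and 9.47 with both. Venetoclax replicate 2 of MX1 was above all other libraries, and the departure of -2.16 became -0.10 without it. IFI44L, also interferon-induced, had -0.30 with all libraries, -0.97 without venetoclax replicate 1 and 1.06 without replicate 2.

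Hypoxia-inducible and glycolytic genes lay mostly below the sum, with 26 departures below it and 6 above. With venetoclax alone their median log2 fold change was -1.03. Of 32, 7 departures were below at an unadjusted p under 0.05 (21.9%) and 3 above (9.38%), with a median of -0.24. LDHA, the lactate dehydrogenase chain, stood at 2178 and 2378 CPM with vehicle, 2295 and 2241 with TAK-981, 2403 and 1404 with venetoclax, and 782 and 716 with both. Each combination library of LDHA was lower than every other library (departure -1.34, SE 0.308, adjusted p = 0.127, edgeR). BNIP3, a mitophagy receptor, stood at 189 and 209.8 with vehicle, 279.8 and 285 with TAK-981, 84.1 and 24.8 with venetoclax, and 19.3 and 19 with both. Its departure was -1.98 (SE 0.588, adjusted p = 0.167, edgeR), and -0.88 without venetoclax replicate 1. PFKFB4, an enzyme that makes an activator of glycolysis, had -0.54 and the peptide hormone gene ADM had -0.26, and each turned above the sum without venetoclax replicate 1, to 0.91 and 0.52. NDRG1, a hypoxia-induced stress gene, had 1.05.

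Cholesterol synthesis genes had 6 of 25 below (24%, against 11.6% of all genes) and 2 above (8%, near the 7.25% of all genes), with a median of -0.16. HMGCS1, which makes the substrate of the rate-limiting enzyme, stood at 717 and 627 CPM with vehicle, 1064 and 839 with TAK-981, 589 and 397 with venetoclax, and 282 and 235 with both. TAK-981 libraries were the highest for HMGCS1 and combination libraries the lowest (departure -1.43, SE 0.281, adjusted p = 0.108, edgeR). INSIG1, which restrains the pathway, lay on the sum at -0.17 (95% interval -0.67 to 0.32), with 237 and 214 CPM with vehicle, 2577 and 2455 with TAK-981, 153 and 125 with venetoclax, and 1202 and 1541 with both.

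Replication-dependent histone genes and RNAs without poly(A) tails had the highest medians, 1.54 over 35 histone genes (9 above, 25.7%, and 0 below) and 2.08 over 17 noncoding RNAs (10 above, 58.8%, and 0 below). Most members of both lists averaged under 5 CPM, such as HIST1H3F at 0.298 CPM with a departure of 4.82 (SE 3.77). Of all genes tested, 5.3% were more than 2-fold above the sum, against 1.17% of genes of at least 5 CPM. RN7SK, which holds back transcription elongation, stood at 2.91 and 3.29 CPM with vehicle, 8.81 and 5.72 with TAK-981, 10.4 and 9.12 with venetoclax, and 56.7 and 91.4 with both. The combination libraries of RN7SK were far above the 22.9 CPM of multiplied folds (departure 1.69, SE 0.393, adjusted p = 0.129, edgeR). RN7SL1, the RNA of the signal recognition particle, had 1.43, and HIST1H4C, a histone H4 gene, had 1.8 with an interval from -0.16 to 3.76. Copies of these genes are near-identical, so their reads could be shared. The sources differ on whether the libraries were made by ribosomal RNA depletion or with a kit that generally primes on poly(A) tails, which decides how such RNAs are read, and the part of this in their departures was not tested.

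Of the other genes read for reference, JUN, an immediate early transcription factor, had 0.89 (95% interval -0.58 to 2.36) and CDKN1A, the p53-induced cell cycle inhibitor, had 0.92 (95% interval -0.06 to 1.90). JUN and CDKN1A were under 5 CPM in every library, and CDKN1A had 9 and 15 counts with venetoclax. The departure of JUN was 0.37 without venetoclax replicate 1 and 2.76 without replicate 2. CD34, the stem cell marker of the line, stood at 982 and 953 CPM with vehicle, 1263 and 1251 with TAK-981, 1519 and 1196 with venetoclax, and 1214 and 1256 with both. The libraries of each drug were above vehicle, and the combination libraries stood level with TAK-981 (departure -0.52, SE 0.19, adjusted p = 0.205, edgeR). COL5A1, a collagen chain that is nearly silent without TAK-981, had 3 counts with vehicle, 802 with TAK-981, 2 with venetoclax and 1003 with both. With both drugs it stood at 1.47 times the TAK-981 level (95% counting interval 1.34 to 1.62), and venetoclax alone gave 0.798 of the vehicle level (95% counting interval 0.0667 to 6.97), so the departure could not be read. The interval covers counting error only. In the 76 ribosomal protein genes 0 members were on either side at an unadjusted p under 0.05, with a median of 0.08.

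**Figure D5:**
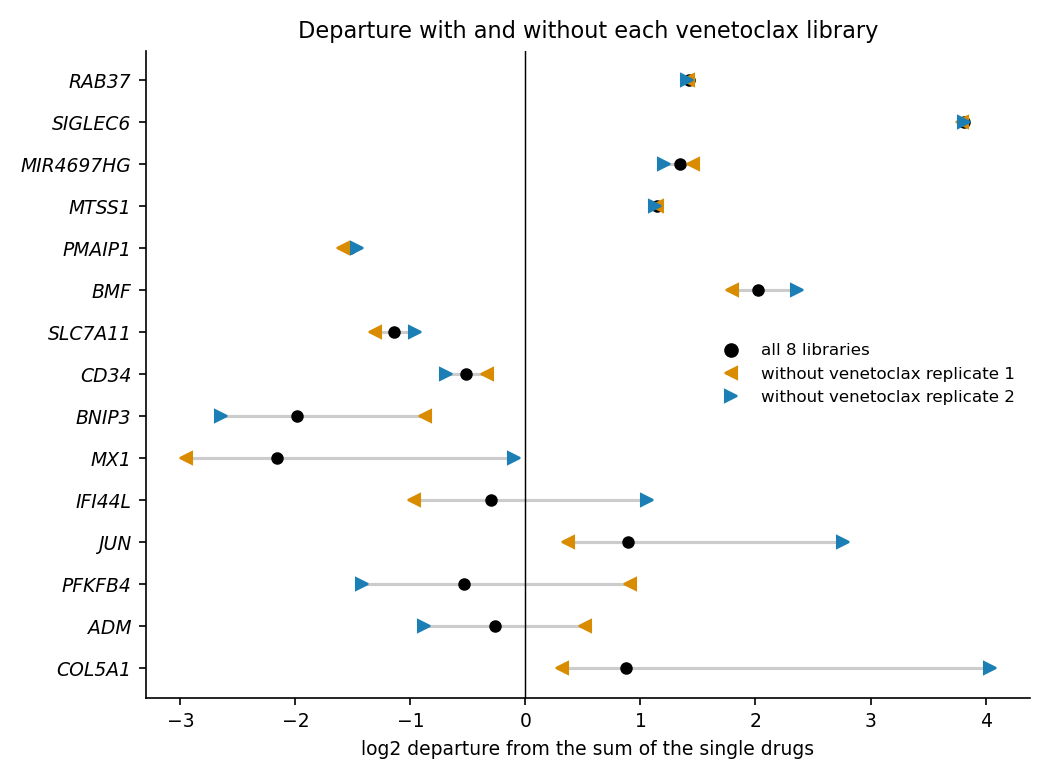
Log2 departure of 15 genes with all 8 libraries (circles) and without venetoclax replicate 1 or replicate 2 (triangles pointing left and right). The 4 called genes and PMAIP1 barely move, whereas BNIP3, MX1, IFI44L, JUN, PFKFB4, ADM and COL5A1 differ by more than 1 log2 unit between the fits without either library.

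Genes with a large expected response more often fell short of the sum than passed it. Of 274 genes of at least 5 CPM whose sum was at least 2-fold higher than vehicle, 59 exceeded it, 212 fell short and 3 went the opposite way, with a median of 1.21 for the sum and 0.88 for the combination. Of 322 genes with a sum at least 2-fold lower, 71 exceeded it, 238 fell short and 13 went the opposite way, with medians of -1.22 and -0.91. The sum and the departure share the vehicle and single-drug libraries with opposite sign, so that chance spread in those libraries also yields shortfalls, and no test was made of these counts.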

How the data were processed

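RNA sequencing of 8 KG1a libraries gave gene counts, deposited by the authors as whole numbers, not normalized. Trimmomatic, STAR 2.6.0, HTSeq 0.11.1, edgeR and hg38 are named without role, per the submitters' processing notes. The annotation, strand setting and treatment of multiply mapped reads are unknown (not given in the sources), so near-identical and overlapping genes are uncertain. Groups came from the labels.

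The departure was tested with edgeR's quasi-likelihood test (edgeR 4.0.16, limma 3.58.1, R 4.3.3; TMM scaling, filterByExpr, 1 mean per group, robust, two-sided), Benjamini-Hochberg adjusted over 12843 genes, with a threshold of 0.05. SEs were derived from F. CPM values of single genes are TMM-scaled, and summed marker levels use total counts.

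Named genes are called genes of at least 5 CPM with 1 sign in all 16 choices of 1 library per group (up to 12 per direction, leaving out symbols of noncoding form), up to 4 called members per list and a fixed set that covers the drug targets, apoptosis and markers. Members and lists were chosen with earlier results of these data known. Since no list member was called, list members named outside the fixed set fall outside this rule. They are examples picked with their values seen. Of 1043 list members, 1038 matched, 71 by an older name. On simulated counts with equal spread in all groups the test recovered 76% of 100 genes at 2-fold and 96% of 100 at 4-fold. It made 14 false calls among 186. The genes changed in the simulation averaged at least 5 CPM, and the real venetoclax replicates spread more than the others. These rates therefore need not hold for the data. Promoters are RefSeq's (GRCh38.p14). Alternatives were other scaling, filters, tools (DESeq2 1.42.0, limma-voom), a replicate block, a linear scale and each library left out. Counts at an unadjusted p and list counts without a venetoclax library were added after seeing the data. Some single-gene results are not reported here.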

Additional observations from a re-analysis of the deposited data

Results flagged for a closer look

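The effect of TAK-981 in the presence of venetoclax differed from its effect in the absence of venetoclax in 4 genes, by the edgeR test of that difference itself. The log2 departures were 1.42 for RAB37, 3.81 for SIGLEC6, 1.34 for MIR4697HG and 1.14 for MTSS1.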

How the results depend on the processing

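The number of calls differed between settings. The calls numbered 4 above the sum and 0 below it, 7 and 1 with DESeq2's size factors, 445 and 653 (1098 in all) with no filter on low counts, which tests 18124 genes, 132 and 164 (296 in all) with DESeq2, 8 and 1 (9 in all) with limma-voom, 10 and 13 (23 in all) with weights per group. The edgeR test against 1.5-fold gave 0, with 305 above and 117 below at an unadjusted p under 0.05. A filter at 1 CPM gave 4 and 0 again. Leaving out 1 library at a time gave 0 to 1864 above, 0 to 2576 below and 0 to 4440 in all. Without a venetoclax library the lone one is assumed to vary like the other groups. SIGLEC6 was not called with weights per group, and DESeq2 gave it no adjusted p. With the replicate number as a block there were 17 above and 7 below, 24 in all. The labels say nothing of what a number shares. The correlation of same-numbered deviations between groups ran from -0.041 to 0.375, not over 0.1 in every pair of groups, so the numbers were not taken to pair the samples.

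The departures of several named genes changed sign. Without 1 library, the range was -0.24 to 0.36 for BCL2L1, -0.39 to 0.56 for BBC3, -0.15 to 0.15 for SAE1, -0.15 to 0.25 for MYC, -0.97 to 1.06 for IFI44L, -1.42 to 0.91 for PFKFB4, -0.88 to 0.52 for ADM and -0.099 to 0.987 for NQO1. On the linear scale the sign turned for BCL2, BCL2L11, BBC3, SAE1, MYC, JUN, IFI44L, PFKFB4 and ADM. SAE1 was also -0.006 with no filter. PFKFB4 was 0.035 with limma-voom and 0.073 with weights per group, and ADM was 0.011 with those weights. The cause was not tested.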
